A study of Mus musculus with 2 samples.

Results

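The nuclear genes of oxidative phosphorylation were examined in the midbrain of 2 mouse embryos. The members were the protein-coding genes on nuclear chromosomes whose symbol starts with Nduf, Uqcr, Atp5, or Cox followed by a digit, which gave 98 genes among 43346 rows with an Ensembl identifier and among 21461 nuclear protein-coding genes. Of these, 36 encode subunits of complex I, 8 of complex III, 20 of complex IV and 16 of complex V, counting Ndufa4 and its paralog Ndufa4l2 with complex IV. Another 18 encode assembly factors or related proteins. The choice by symbol leaves out complex II, cytochromes c and c1 and assembly factors with other names, which are given separately where they are compared. Both libraries came from untreated B6NCrl embryos at 14.5 days of development, 1 midbrain per library, taken on different days, and 10 ng of RNA entered each library. They form 1 group (n = 2, embryo 1 and embryo 2), so the design offers no contrast to test, and no p-value is given.

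Oxidative phosphorylation takes place at the inner membrane of the mitochondrion. Complex I oxidises NADH, complex III passes electrons from ubiquinol to cytochrome c, complex IV reduces oxygen, and complex V, the ATP synthase, uses the resulting proton gradient to make ATP. Most subunits are encoded in the nucleus and imported, while a small set is encoded in mitochondrial DNA. Core subunits carry out the chemistry, and the many small supernumerary subunits surround them. Several complex IV subunits have alternative genes that are known from adult heart and skeletal muscle, lung or testis.

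The tables held 32716141 expected counts in embryo 1 and 30185472 in embryo 2, and mitochondrial genes held 1.93% and 2.58% of those on genes. The libraries differed in sex-linked genes although the labels call the sex pooled: Xist had 3 counts in embryo 1 and 20808 in embryo 2, and Eif2s3y had 1901 and 0. They also differed in other cell types. Summed TPM (a transcript level corrected for gene length and for the size of the library) of 7 mesenchyme and meninges markers was 427 in embryo 1 and 20.1 in embryo 2, and all 7 were higher in embryo 1. All 6 macrophage, 7 erythroid, 5 endothelial and 6 cell cycle markers were also higher in embryo 1, with none of them at 0. The 6 progenitor markers were divided, with 4 higher in embryo 1 and 2 in embryo 2, and their summed TPM was 1859 and 1983. In this bulk tissue, fewer cells of a type and less RNA per cell cannot be told apart.

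The 98 genes were expressed at high levels. Detection, set as a TPM of 1 or more in each embryo, held for 94 of 98, against 59.5% of nuclear protein-coding genes, and a TPM of 100 or more held for 72 of 98, against 6.6%. The median of the members' mean TPM was 277, compared with 4.66 over all nuclear protein-coding genes and 20.3 over those detected. Together they held 29517 TPM in embryo 1 and 34198 in embryo 2, which was 3.76% and 4.49% of the TPM of nuclear protein-coding genes, or 4.12% ± 0.514 (SD, n = 2). Among nuclear protein-coding genes ranked by mean TPM, 8 members stood in the top 100 and 50 in the top 500.

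**Figure D1:**
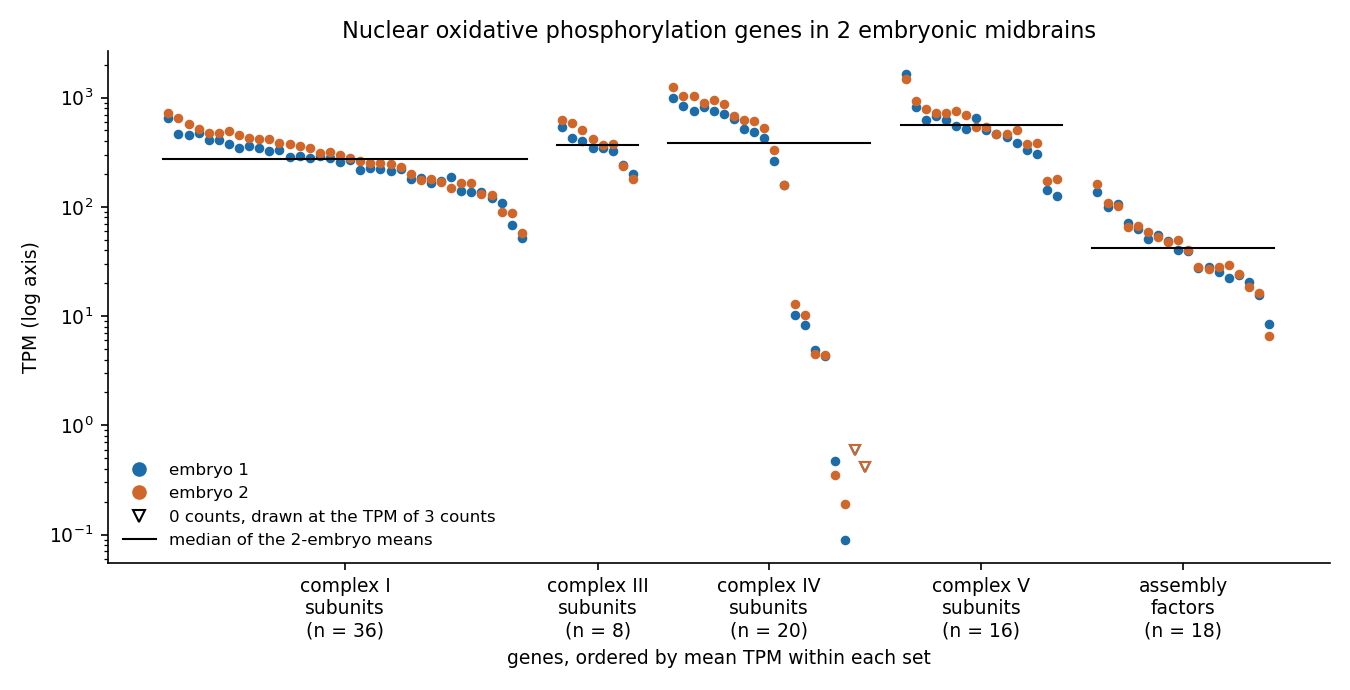
TPM of each of the 98 genes on a log axis, ordered by mean TPM within the subunits of each complex and within the assembly factors; circles are the embryos, the lines are medians of the 2-embryo means, and open triangles stand for genes with 0 counts, drawn at the TPM of 3 counts. Subunit medians run from 277 in complex I to 561 in complex V, assembly factors have a median of 42.3, and 8 complex IV genes lie far below the rest.

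By the median of mean TPM, subunit levels stood in the order I (277), III (370), IV (386) and V (561), and the ranges of single genes overlapped widely. Median subunit TPM was 264 and 290 in embryos 1 and 2 for complex I, 346 and 399 for complex III, 341 and 431 for complex IV, and 509 and 543 for complex V. Without 8 minor paralogs (Cox4i2, Cox6a2, Cox6b2, Cox7a1, Cox7b2, Cox8b, Cox8c and Ndufa4l2), the complex IV median was 673 and 783, above that of complex V. The complex III and complex IV medians did not differ beyond the spread between the embryos, and the place of complex IV depended on counting those paralogs.

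Within complex I, the 7 core subunits of the path from NADH to quinone had a median TPM of 185 in embryo 1 and 176 in embryo 2. The 29 supernumerary subunits had medians of 281 and 347. Highest was Ndufc1, a small membrane subunit, at 644 and 726. Ndufa1, a small membrane-anchored subunit encoded on the X chromosome, followed at 465 and 656, and Ndufb8 at 458 and 572. This order is that of the whole gene's TPM. Transcripts annotated as coding held 51.0% and 53.0% of it for Ndufc1, 100% for Ndufa1, and 96.9% and 97.7% for Ndufb8. Lowest were Ndufb4 at 52.2 and 57.9 and Ndufa11 at 67.7 and 87.6. The TPM of Ndufa11 rests on its only annotated transcript, of 2661 bases for 432 coding bases, with 3321 and 4289 counts. The value of Ndufb4 depends on how reads were divided with a pseudogene, and 78.6% and 75.3% of its TPM stood on a retained-intron transcript. Among the core subunits, Ndufv2 led at 289 and 313, and Ndufs1, the largest iron-sulfur subunit, was lowest at 109 and 90.3.

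In complex III, Uqcrq was highest at 533 and 624, followed by Uqcr11 at 429 and 580 and Uqcr10 at 399 and 508, all 3 of them small supernumerary subunits. Uqcrfs1, the Rieske iron-sulfur protein that takes electrons from ubiquinol, stood at 243 and 236, and Uqcrc2, known as core protein 2 but counted here as supernumerary because it carries no redox centre, was lowest at 200 and 178. Complex IV was led by Cox6b1 at 996 and 1244, Ndufa4 at 834 and 1034 and Cox6a1 at 756 and 1024. These 3 genes had the highest mean TPM of the members after Atp5b, and each was higher in embryo 2.

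Complex V held the most abundant member. Atp5b, the catalytic beta subunit, had a TPM of 1643 in embryo 1 and 1492 in embryo 2 and ranked 25 among nuclear protein-coding genes. Atp5g3, 1 of 3 genes for the c subunit of the rotor ring, followed at 824 and 925, and Atp5e, the epsilon subunit, at 621 and 789. Atp5l, the g subunit, was lowest at 127 and 181, and Atp5g2 came next at 141 and 173. Both of these low values also depend on pseudogenes.

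The assembly factors were far below the subunits, with a median mean TPM of 42.3 against 352. Their highest member was Cox14 at a TPM of 135 and 161, followed by Cox20 at 100.4 and 109 and Cox16 at 106 and 102. The lowest were Cox15, which makes heme A, at 8.49 and 6.59, and Atp5s, the coupling factor B, at 15.7 and 16.3. Of the 18 assembly factors, Cox14, Cox20 and Cox16 were the only 3 at a TPM of 100 or more in both embryos. The 8 complex I assembly factors ran from 23.8 to 64.7 by mean TPM.

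For 6 complex IV families, 1 gene supplied nearly all of the transcripts (the plot of alternative genes for the same subunit). The other genes of these families were minor in both embryos. Cox4i1, the general form of subunit 4, took 99.5% of its pair's TPM in each embryo, with TPM values of 819 and 897. Cox4i2, known from lung and from the response to low oxygen, stood at 4.32 and 4.41. Cox6b1 took 99.2% of its pair in each embryo, and Cox6b2, the testis form, stood at 8.23 and 10.3. Ndufa4 took 98.8% in each embryo, and Ndufa4l2, a paralog known from the response to low oxygen, stood at 10.2 and 12.9.

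**Figure D2:**
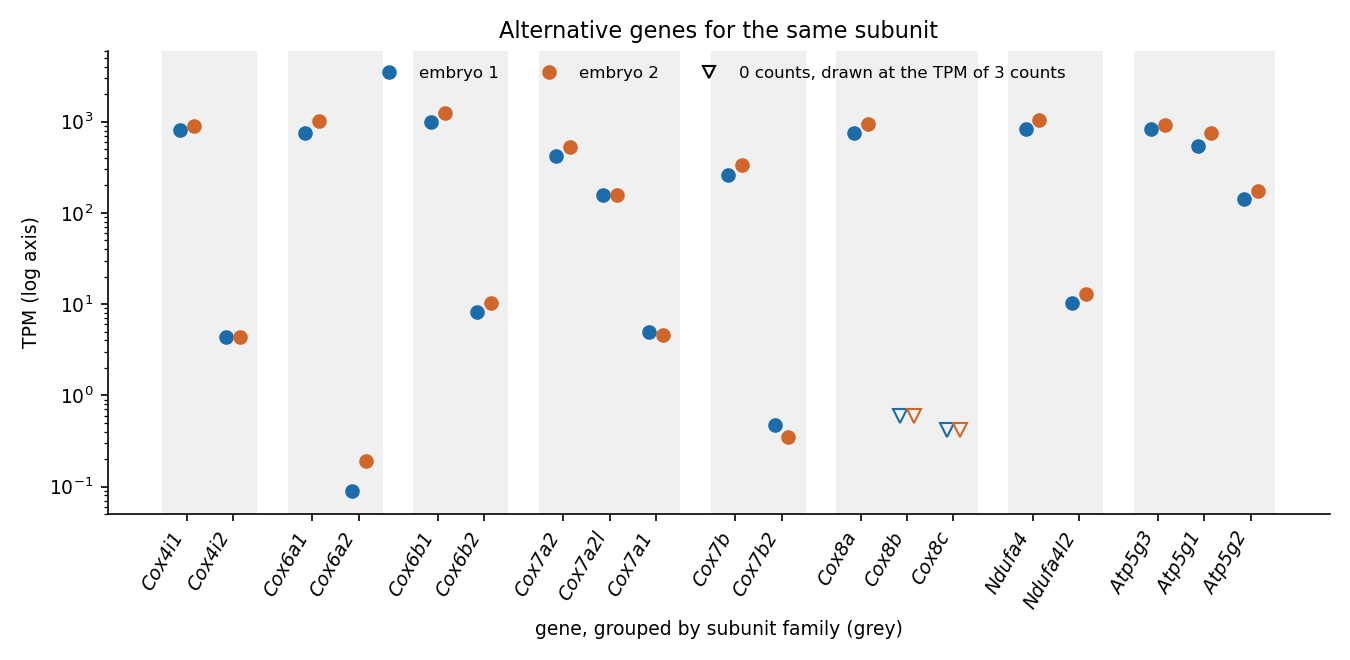
TPM on a log axis of the genes that encode the same subunit, grouped by family on grey, with 1 circle per embryo; open triangles are genes with 0 counts, drawn at the TPM of 3 counts. In the Cox4i, Cox6a, Cox6b, Cox7b, Cox8 and Ndufa4 families the leading gene stands far above the others, while the Cox7a and c subunit families are shared among genes.

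Cox6a2 and Cox8b, forms known from heart and skeletal muscle, were at or below the limit of detection. Cox6a2 had 1 count in embryo 1 and 2 counts in embryo 2, against 6837 and 9250 for Cox6a1. Its share of the pair's counts was 0.0146% (95% exact Clopper-Pearson interval 0.000370% to 0.0815%) and 0.0216% (0.00262% to 0.0781%), covering counting error only. Cox8b had 0 counts in both embryos, and so did Cox8c, the testis form, while Cox8a had 6397 and 8054. On the TPM scale, with a floor of 3 counts per library, Cox8b was at least 1257-fold lower than Cox8a in embryo 1 and at least 1583-fold lower in embryo 2. For Cox8c the bounds were 1802-fold and 2269-fold. Cox7b2, another testis form, had 4 and 3 counts, and its TPM was 0.47 and 0.35 against 260 and 335 for Cox7b. Of 8 striated muscle markers, 2 were detected, with a summed TPM of 6.57 and 6.05; Tnni1 and Myog were at 0 in embryo 2 and Ckm in embryo 1. None of 5 male germ cell markers reached a TPM of 1 in both embryos. Ddx4 stood at 1.9 and 0.47 TPM, from 100 and 24 counts, and Tnp1 was at 0 in both embryos.

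The subunit 7a family was divided. Cox7a2, the general form, took 72.2% of the family's TPM in embryo 1 and 76.4% in embryo 2, with a TPM of 422 and 527. Cox7a2l, a paralog linked to supercomplexes of complexes III and IV, took 27.0% and 23.0%, at 158 in each embryo. Whether it has that role in this strain was not tested. Cox7a1, the heart and skeletal muscle form, took 0.842% and 0.658% of the TPM. By expected counts its share was 0.302% and 0.240%, from 25 and 23 counts. Its TPM of 4.93 and 4.54 was 85.7-fold and 116-fold below that of Cox7a2. The difference between the embryos lay in Cox7a2, since Cox7a2l and Cox7a1 had nearly equal TPM in both. Cox4i2 and Ndufa4l2 are also known from pericytes. Of 9 pericyte and smooth muscle markers 8 were detected and none was at 0, with a median TPM of 8.75 in embryo 1 and 7.55 in embryo 2. Their summed TPM was 179 and 81.9, of which Vtn alone held 109 and 31.6, and 7 of the 9 were higher in embryo 1. The part of those cells in the levels of Cox4i2 and Ndufa4l2 was not tested.

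The c subunit of the ATP synthase comes from 3 genes that differ in their import sequence. Atp5g3 took 54.5% of the family's TPM in embryo 1 and 50.05% in embryo 2, Atp5g1 36.1% and 40.6%, and Atp5g2 9.35% and 9.34%. With pseudogene counts added, the share of Atp5g2 by expected counts rose from a mean of 10.1% to 17.7%. The last 237 coding bases of the 3 genes, stop codon included, encode the same protein, yet they differ at 64 positions. Relative to Atp5g1, 34 of 79 codons differ in Atp5g2 and 46 in Atp5g3, all of them synonymous. These sequences are shown because the genes make 1 product from them and, in this stretch, differ only at the positions in capitals (GENCODE M21 coding sequence, 5′ to 3′):
Atp5g1: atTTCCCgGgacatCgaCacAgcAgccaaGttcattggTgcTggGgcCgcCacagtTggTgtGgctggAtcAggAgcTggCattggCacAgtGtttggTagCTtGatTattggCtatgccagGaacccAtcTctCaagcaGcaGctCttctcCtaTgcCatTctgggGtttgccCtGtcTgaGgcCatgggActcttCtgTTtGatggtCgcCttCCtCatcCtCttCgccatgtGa
Atp5g2: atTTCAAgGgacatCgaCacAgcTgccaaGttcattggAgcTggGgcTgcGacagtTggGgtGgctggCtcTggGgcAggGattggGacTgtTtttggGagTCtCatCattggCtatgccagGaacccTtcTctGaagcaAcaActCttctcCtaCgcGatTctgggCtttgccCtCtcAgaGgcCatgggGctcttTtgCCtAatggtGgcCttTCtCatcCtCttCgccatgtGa
Atp5g3: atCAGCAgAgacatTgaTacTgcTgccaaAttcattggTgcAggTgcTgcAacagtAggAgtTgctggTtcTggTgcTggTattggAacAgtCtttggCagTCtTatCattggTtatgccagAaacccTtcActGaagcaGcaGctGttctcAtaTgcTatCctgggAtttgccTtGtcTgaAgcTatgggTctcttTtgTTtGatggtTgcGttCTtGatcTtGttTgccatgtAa
Atp5g1 lies at chr11:96068852-96075670, Atp5g2 at chr15:102662864-102672352 and Atp5g3 at chr2:73908447-73911326, all on the minus strand of GRCm38 (mm10). Their complete coding sequences were 66.6% to 68.8% identical in pairs. A copy that carries the same letters as its parent cannot be told from it in this way.

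Copies of the coding sequence elsewhere in the genome bore on several values. Of the 98 members, 22 matched 39 pseudogenes at 95% identity or more over at least 100 bases. How often other genes have such matches was not computed. In total these pseudogenes held 2.43% of the combined counts in embryo 1 and 2.69% in embryo 2, so the summed counts of the members were little affected. Their share of the summed TPM was not computed. Gm10221, a copy of Atp5l, alone stood at 748 and 923 TPM, beside 29517 and 34198 for all members. For 6 members the copies took more than 5% of the combined counts, and for 3 of them more than 20%. Those 3 were Atp5l, with 82.2% and 80.0% of the combined counts on its copies, Ndufb4 with 75.2% and 77.0%, and Atp5g2 with 52.4% and 47.8%. Atp5g1 followed at 10.7% and 9.47%, Cox7c at 10.0% and 11.7% and Ndufab1 at 7.88% and 9.36%.

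In the 2 strongest cases the copy carries the coding sequence letter for letter, and the sequence is printed for that reason. Atp5l (chr9:44912557-44920742, minus strand) had 1001 and 1429 expected counts, while the pseudogene Gm10221 (chr5:24581554-24581862) had 4625 and 5701. The sequence of 309 bases, which is the Atp5l coding sequence without its stop codon, is identical in both. Ndufb4 (chr16:37647170-37654453, minus strand) had 474 and 543 counts, while Ndufb4c (chr15:73809507-73809896) had 1440 and 1819, with all 390 coding bases identical. The leading 300 bases of each shared stretch read, 5′ to 3′:
Atp5l and Gm10221: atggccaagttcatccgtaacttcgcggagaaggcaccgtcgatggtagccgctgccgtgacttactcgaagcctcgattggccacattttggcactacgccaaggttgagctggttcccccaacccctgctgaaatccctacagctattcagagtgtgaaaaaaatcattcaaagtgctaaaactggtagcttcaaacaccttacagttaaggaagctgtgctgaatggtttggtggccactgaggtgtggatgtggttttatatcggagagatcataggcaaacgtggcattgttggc
Ndufb4 and Ndufb4c: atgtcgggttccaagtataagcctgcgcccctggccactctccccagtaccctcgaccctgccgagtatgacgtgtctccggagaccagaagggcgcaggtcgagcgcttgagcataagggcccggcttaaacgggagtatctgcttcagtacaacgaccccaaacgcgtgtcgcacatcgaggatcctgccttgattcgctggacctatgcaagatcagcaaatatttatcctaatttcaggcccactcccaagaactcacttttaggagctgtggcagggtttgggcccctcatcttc
A read inside such a stretch matches both places, and the division of reads between them came from the authors' estimate. Together, Atp5l and its copies held 5636 and 7138 counts, and Ndufb4 and its copies 1914 and 2362. Whether the pseudogenes are themselves transcribed was not tested.

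**Figure D3:**
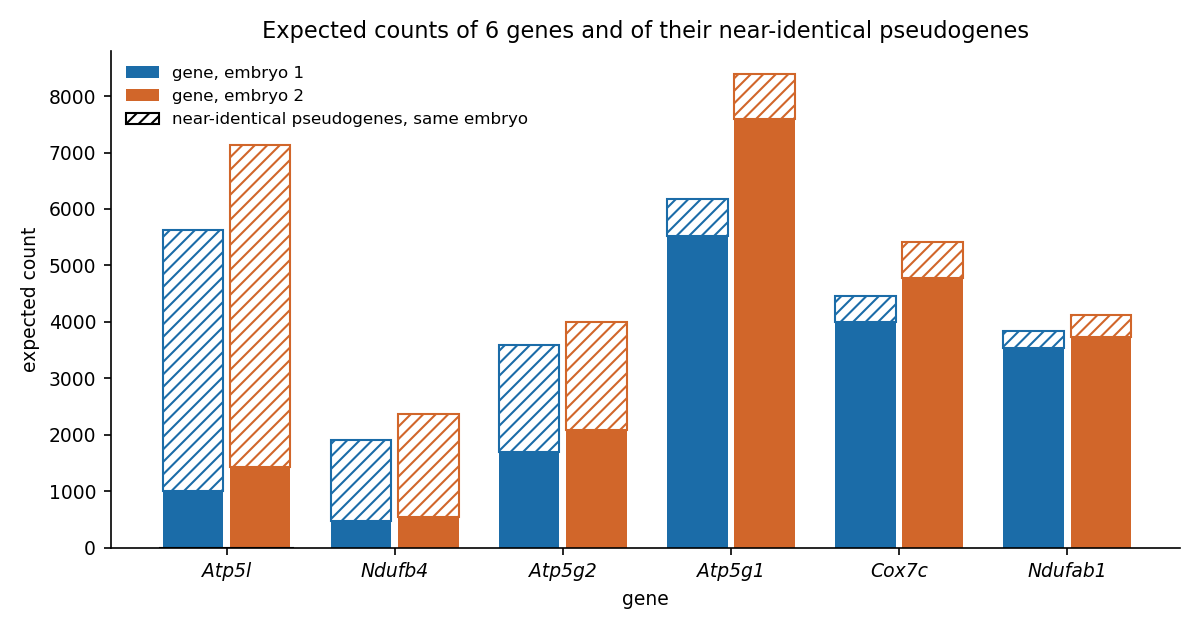
Expected counts of the 6 genes whose near-identical pseudogenes held more than 5% of the combined counts, with a bar for each embryo; the filled part is the gene and the hatched part its pseudogenes. In Atp5l and Ndufb4 most counts stand on the copies, in Atp5g2 about equal numbers, and in Atp5g1, Cox7c and Ndufab1 a small part.

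Most of the members' TPM stood on transcripts annotated as protein-coding. The coding share was above 90% in both embryos for 66 members and below 50% in at least 1 embryo for 11. Lowest was Ndufa5, a supernumerary subunit, at 10.2% and 9.31%: its processed transcript Ndufa5-204 held 252 and 315 of the gene's 281 and 347 TPM. Ndufa10 had coding shares of 18.4% and 17.8%, Ndufb4 21.4% and 24.7%, Atp5j 32.2% and 35.5%, Atp5f1 33.2% and 36.8%, Cox5b 40.2% and 38.4% and Cox7b 43.8% and 41.4%. In Cox7b, the retained-intron transcript Cox7b-203 stood at 135 and 171 TPM beside 114 and 139 for the coding Cox7b-201. A gene's TPM is thus not always a level of coding transcript. Exons of 38 members also overlap another annotated gene, 33 on the opposite strand and 7 on the same strand. Reads of opposite-strand pairs cannot be told apart where strand was not used in counting. The coding shares and overlaps were not computed over other genes, so they cannot be read as traits of the members.

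Ndufv3, a supernumerary complex I subunit with a short and a long form, was present almost only in its short form. The transcript with 315 coding bases, Ndufv3-202, stood at 327 TPM in embryo 1 and 406 in embryo 2. The transcript with 1407 coding bases, Ndufv3-201, stood at 14.2 and 9.19. The short form held 95.1% and 97.2% of the gene's TPM.

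Nearly all members were higher in embryo 2 on a common count scale. Ratios were taken of expected counts scaled by TMM, a factor that balances the libraries over most genes, for genes with at least 100 summed counts. Of 93 members tested, 87 were higher in embryo 2, against 50.6% of 14011 genes, and the median ratio was 1.27-fold (log2 0.34, against 0.01 over all genes). Counting intervals (95%) of the ratio lay above 1 for 78 members, below 1 for 5 and included 1 for 10, against 32.8% above and 33.6% below 1 over all genes. At least 1.5-fold higher in embryo 2 were 3 members, against 5.65% of all genes, and at least 1.5-fold higher in embryo 1 were 0, against 8.56%. With 1 library on each side of a ratio there is no replicate check of it.

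The median log2 ratio was 0.35 for complex I subunits, 0.36 for complex III, 0.46 for complex IV and 0.36 for complex V. By role, all 62 supernumerary subunits tested were higher in embryo 2 (median log2 0.38), against 9 of 13 core subunits (0.14) and 16 of 18 assembly factors (0.17). Core here means the 7 conserved nuclear core subunits of complex I, the Rieske protein and the 5 F1 subunits of complex V. All other subunits count as supernumerary. These include Uqcrc1, Uqcrc2 and every Fo or stalk subunit of complex V, such as c, b (Atp5f1) and OSCP (Atp5o). The comparison by role holds for this grouping only, and another grouping was not tested. The 3 members past 1.5-fold were Atp5l at 1.58-fold (95% counting interval 1.46 to 1.72), Ndufa1 at 1.56-fold (1.49 to 1.64) and Atp5g1 at 1.52-fold (1.47 to 1.58). These calls depended on the scale: 0 members passed with spike-in scaling or from TPM ratios, and Atp5g1 fell below the threshold with DESeq2 size factors or total counts (log2 0.58 in both). Just under that size was Cox6a1, with a log2 ratio of 0.58 (interval of the ratio 1.45 to 1.55), and next came Uqcr11 (log2 0.58) and Atp5mpl (0.57). With its pseudogene counts added, Atp5l had a log2 ratio of 0.49, below 1.5-fold. Among those higher in embryo 1 were Atp5a1, the alpha subunit (log2 -0.18), Cox15 (-0.17), Ndufs1 (-0.12), Atp5b (-0.04) and Ndufaf4 (-0.04), of which Ndufaf4 had an interval that included 1.

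Gene length moved with the ratio. Across the 93 members, the log2 ratio and log2 effective length had Pearson's r = -0.63 and Spearman's rho = -0.59, a description over genes that share both libraries. The members are short, with a median effective length of 581 bases against 2564 for protein-coding genes tested. Other protein-coding genes showed the same order by length. Below 400 bases their median log2 ratio was 0.36 (57 genes), at 500 to 700 bases 0.25 (266 genes), at 1000 to 1500 bases 0.13 (1534 genes) and above 2500 bases -0.11 (6669 genes). The members' medians in those classes were 0.47 (14 members), 0.37 (23), 0.13 (12) and 0.17 (2). The last 2 were Ndufa11 (0.52) and Cox15 (-0.17).

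**Figure D4:**
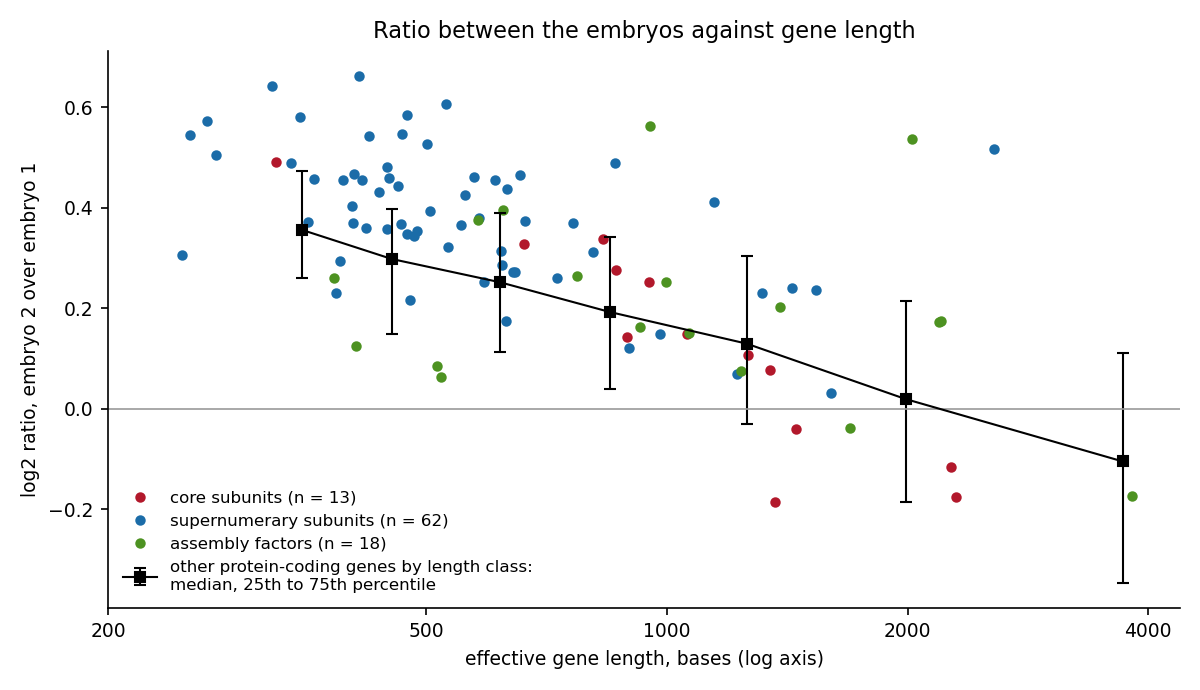
Log2 ratio of embryo 2 over embryo 1 against effective gene length (log axis) for the 93 members with at least 100 summed counts, coloured by role; squares and bars are the median and interquartile range of other protein-coding genes by length class. Short members stand highest, and the medians of other genes fall from 0.36 in the shortest class to -0.11 in the longest.

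Once the trend with length over all genes was removed, the median log2 ratio of the members was 0.09, 66 of 93 were higher in embryo 2 (49% of all genes), and 0 were past 1.5-fold, against 5.32% of all genes toward embryo 2 and 7.96% toward embryo 1. By role, 52 of 62 supernumerary subunits were then higher in embryo 2 (median log2 0.13), against 5 of 13 core subunits (-0.03, a turned direction) and 9 of 18 assembly factors (0.01). The medians were 0.07 for complex I, 0.10 for complex III, 0.15 for complex IV and 0.12 for complex V. The largest remaining values were those of Ndufa11 (0.56) and Cox19 (0.51). Before this step they were 0.52 and 0.54, and the step relied on effective lengths of 2562 and 2027 bases from the annotation. The pups' collection day, the sex-linked genes and the cell type markers above differ between the same 2 libraries, so their parts in the ratios cannot be told apart. Of 6 young neuron markers 4 were higher in embryo 2, with a summed TPM of 5287 and 5902.

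The 3 X-linked members, Ndufa1, Ndufb11 and Cox7b, had log2 ratios of 0.64, 0.31 and 0.46. All 454 X-linked coding genes tested had a median of -0.01, the same as other coding genes. After removal of the length trend the 3 values were 0.31, 0.09 and 0.20.

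The mitochondrially encoded partners were also mostly higher in embryo 2. The 13 mitochondrial genes for subunits of complexes I, III, IV and V had a summed TPM of 31463 in embryo 1 and 36199 in embryo 2, close to the 29517 and 34198 of the 98 nuclear members. Of the 13, 12 were higher in embryo 2, with a median log2 ratio of 0.28, or 0.10 without the length trend. Largest were mt-Nd3, a complex I subunit, at 241 and 460 TPM (log2 1.08), and the catalytic complex IV subunits mt-Co2 at 1405 and 2301 (0.86) and mt-Co1 at 2921 and 4280 (0.70). Only mt-Nd4l was higher in embryo 1, at 119 and 83.6 (-0.37). Reads shared with nuclear copies of mitochondrial DNA, or between neighbouring mitochondrial genes, were not examined.

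Other genes of the pathway had smaller median ratios before the length trend was removed, with single genes beyond the members' range. Without that trend the median log2 ratio was 0.22 for cytochromes c and c1, above the 0.09 of the members. It was -0.05 for complex II, 0.06 for the adenine nucleotide carriers and 0.07 for the regulators. Of 4 complex II genes 3 were higher in embryo 2, with a median log2 ratio of 0.13, and Sdha, the flavoprotein, was at 159 and 119 TPM (-0.28). Cytochrome c1, Cyc1, stood at 298 and 326 (0.27), and the cytochrome c gene Cycs at 57.5 and 61.5 (0.25). Of 31 other assembly and accessory genes with enough counts, 22 were higher in embryo 2 (median log2 0.11, and 0.00 without the length trend). Sco2, a copper chaperone for complex IV, was the only 1 of them past 1.5-fold, at 9.93 and 16.0 TPM (log2 0.83). Highest in level was Atpif1, the inhibitor of ATP synthase, at 1070 and 1210 TPM. The adenine nucleotide carriers Slc25a4 and Slc25a5 stood at 641 and 693 and at 460 and 432. Among 8 regulators of these genes, 4 were higher in each embryo (median log2 0.02). Ppargc1a, a coactivator of mitochondrial biogenesis, stood at 11.0 and 10.2, Nrf1 at 34.4 and 25.01 (log2 -0.36) and Gabpa at 19.8 and 14.2 (-0.39). Esrra, at 4.63 and 10.6, had the largest log2 ratio of the 8 (1.502) and was the only 1 past 1.5-fold.

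Motifs of general activators were found in larger shares of the members' promoters than of all promoters. RefSeq promoter windows (GRCm38.p6, from 250 bases before to 50 after the start) were found for 80 of 98 members, in 86 windows, and were compared with all 32851 windows on both strands. The core of NRF1, a factor known to bind many respiratory genes, was searched as GCGCA and GCGC with any base between them, and was in 20.9% of member windows and 4.603% of all windows. The ETS core CCGGAAG, bound by the GABP factor among others, was in 25.6% and 8.86%. The YY1 core ATGGCGGC was in 11.6% (10 of 86 windows) and 2.24%. TGACGTCA, the full CREB site, was in 4.65% and 1.79%, where the member share rests on only 4 of 86 windows. The GC box GGGCGG and CCAAT were less unequal, at 46.5% and 35.7% and at 41.9% and 37.4%. Member windows were also richer in GC (median 58.5% against 52.7%) and in CpG (20 against 7 per window), and the motif shares were not matched for that.

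Promoters of leading genes and of a silent one are shown as examples, not as a test of motifs against level. They are the 250 bases before the start, 5′ to 3′ on the gene's strand, with NRF1, ETS, YY1 and CREB motifs in capitals. Cox6a1 (chr5:115348959-115349208, minus strand) was at 756 and 1024 TPM, Cox8a (chr19:7217617-7217866, minus strand) at 749 and 944, and Cox8b (chr7:140900447-140900696, minus strand) at 0:
Cox6a1: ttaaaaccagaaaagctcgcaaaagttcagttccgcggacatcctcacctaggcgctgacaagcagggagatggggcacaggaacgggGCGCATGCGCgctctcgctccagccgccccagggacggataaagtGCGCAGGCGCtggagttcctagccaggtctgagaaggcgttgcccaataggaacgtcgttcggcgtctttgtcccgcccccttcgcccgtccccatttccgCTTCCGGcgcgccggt
Cox8a: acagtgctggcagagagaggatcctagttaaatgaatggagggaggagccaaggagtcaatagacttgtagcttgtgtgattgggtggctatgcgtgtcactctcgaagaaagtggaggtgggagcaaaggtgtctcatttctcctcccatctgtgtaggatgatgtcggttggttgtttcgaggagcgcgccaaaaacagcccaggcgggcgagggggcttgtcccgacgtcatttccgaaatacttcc
Cox8b: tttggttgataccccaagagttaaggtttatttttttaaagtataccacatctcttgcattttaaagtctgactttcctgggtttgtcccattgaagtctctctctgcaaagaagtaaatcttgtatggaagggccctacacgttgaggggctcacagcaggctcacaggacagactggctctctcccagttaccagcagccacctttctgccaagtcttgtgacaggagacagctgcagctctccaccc
The Cox6a1 stretch held 2 NRF1 cores and 1 ETS core. Cox8a held none of these motifs wholly within this stretch. Its whole window, which adds the 50 bases after the start, held 2 ETS cores, and that of Cox8b held none of these motifs. In the whole windows, CpG numbered 32 for Cox6a1, 19 for Cox8a and 2 for Cox8b. No window was found for Cox6a2, the partner of Cox6a1. Of pairs not shown, the Cox6b1 stretch held 1 ETS core and that of Cox6b2 none of these motifs. The stretches of Cox7a2 and Cox7a1 both held none. Among the highest members by mean TPM, the whole windows of Atp5b and Ndufa4 held none, while those of Cox6b1 and Cox6a1 did. A match is only a description of the letters, and binding was not measured here.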

How the data were processed

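Total RNA of 2 mouse midbrains was analysed from the deposited gene and transcript tables, made on mm10 with GENCODE M4 per the deposited text records. Expected counts, TPM and FPKM are the authors' estimates per gene or transcript, per the file headers, and reads matching more than 1 place were divided between them by that estimate. FPKM and the posterior mean values served only as alternatives. Quantifier and strand setting: not given in the sources used here. Effective length was 99 bases below length, for reads of about 100 bases. Gene symbols came from GENCODE M21 (42462 of 43346 rows, 98.0%). Rows with only a numeric identifier held 6 and 14 counts (1.83e-05% and 4.64e-05%) and, with the spike-ins (3.15% and 3.32% of counts), stayed out of comparisons.

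The members, gene lists and roles were chosen with earlier results of these data known. Expected counts, rounded, were scaled with TMM in edgeR 4.0.16. Log2 ratios used a prior count of 0.5 and genes with at least 100 summed counts, and their intervals are exact conditional binomial intervals (95%) for counting error only, and several reads may come from 1 molecule. A count of 0 was set against a floor of 3 counts per library. The length trend was a lowess fit (fraction 0.3, statsmodels 0.14.6) on log2 effective length over the 14011 genes. Copies were found with blastn 2.17.0 as GENCODE M21 pseudogenes. The ratio step was tested on simulated data. Named genes were the alternative genes of each subunit, the 3 highest and 2 lowest of each complex and of the assembly factors, members past 1.5-fold, on the X chromosome or with 0 counts. Further genes (Ndufv2, Ndufs1, Uqcrfs1, those near 1.5-fold or at the ends after the length step, those with low coding share and Ndufv3) were chosen after their values were seen. The values of 1 member are not reported here.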

Additional observations from a re-analysis of the deposited data

How the results depend on the processing

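The number of members detected was 94 with either embryo alone, with posterior mean TPM or with an FPKM of at least 1, and 90 at a TPM of at least 10. The median TPM was 352 over subunits only. With 1 embryo left out, the complex V median TPM ranged from 509 to 543. As a share of expected counts, the members took 1.42% of nuclear protein-coding counts. The median log2 ratio of the members stayed above 0 under all 12 alternatives. With spike-in scaling, under which every log2 ratio is lower by 0.11, it was 0.23, and 0.24, 0.25, 0.34 and 0.25 for complexes I, III, IV and V. From TPM ratios, whose median over all genes is -0.13, it was 0.20, and 0.21, 0.22, 0.31 and 0.21. Without the length trend it was 0.0901, and 0.0725, 0.0955, 0.15 and 0.12. With the trends of length and GC content both removed, chosen after seeing the data, it was 0.0718, and 0.0876, 0.0787, 0.10 and 0.10. Members past 1.5-fold in embryo 2 numbered 0 with spike-in scaling, TPM ratios, and removal of length or of length and GC trends, and 2 to 4 otherwise. Over the 56 members tested that overlap no other exon, also chosen after seeing the data, the complex V median was 0.49. Shares of the alternative genes changed with the scale. By posterior mean TPM, Cox6a2 took 0.0258%, Cox6b2 0.9499% and Atp5g2 9.58%. By expected counts, Cox6b2 took 0.786%, Cox7a1 0.271%, Ndufa4l2 2.64%, Atp5g1 34.6% and Atp5g2 10.1%. With pseudogene counts added, chosen after seeing the data, Atp5g1 took 33.8%, Atp5g2 17.7% and Atp5g3 48.5% of expected counts. Beyond what each alternative changes by construction, the cause was not tested. Leaving out an embryo leaves no ratio. No paired analysis was possible because there is 1 group. At this depth, Cox6a2, Cox7b2, Cox8b and Cox8c had at most 4 counts per library.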
